A study of Mus musculus with 24 samples.

Results

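The 10 genes described here, Gal, Npy, Sst, Penk, Tac1, Nts, Cck, Vip, Adcyap1 and Vgf, encode precursors of neuropeptides. They are 10 of the 19938 genes that have a probe set of their own on the array, and each of them is read by 1 probe set. The set was chosen by measured values: the stated reason was that Gal and Npy respond to oxygen, 3% against 21% O2, in neuron-rich cultures. In this series these are midbrain at 48 h and cortex labelled 13 d, and in the latter the Gal arrays of the 2 oxygen levels overlapped. The oxygen differences of these genes in those 2 kinds of culture are therefore given as a description, without a test, and tests are kept for the other comparisons.

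The cells were primary cultures of the mesencephalon (midbrain) and of the fetal cortex from C57Bl/6 mice at embryonic day 14, grown in expansion medium and deposited as neural stem cells. Each region was cultured for 48 h or 13 d in 3% O2 (hypoxia) or in 21% O2 (normoxia), which gives 8 groups of 3 arrays. These are midbrain 48 h at 3% and at 21% O2, midbrain 13 d at 3% and at 21% O2, cortex 48 h at 3% and at 21% O2, and cortex 13 d at 3% and at 21% O2. All groups share the strain, the stage and the medium, and differ in nothing else that the labels record apart from the array run, where the 6 arrays of midbrain 13 d formed run 1 and all others, 18 in number, run 2. The labels do not say whether the arrays of a group came from separate animals or cultures, so p-values reflect array-to-array spread alone, and that spread may be technical.

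Values are log2 expression values as deposited, between 4.65 and 14.49 over all arrays, with array medians between 7.35 and 7.42 and within-group correlations between 0.986 and 0.999. A step of 1 is a doubling of the signal. The files hold no detection calls, and the levels of different probe sets are not comparable with each other, so each gene is compared only with itself. The words rose and fell are kept for genes with a limma adjusted p under 0.05, adjusted over the 23410 probe sets with a gene symbol. The number of arrays limits the precision.

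Neuropeptides are made as longer precursors, cut by proprotein convertases and trimmed in dense core granules, amidated in many cases, and released to act on G protein-coupled receptors, often far from a synapse. In the forebrain and midbrain they mark particular neuron classes: somatostatin (Sst), neuropeptide Y (Npy) and vasoactive intestinal peptide (Vip) are known from cortical inhibitory interneurons, and enkephalin (Penk), substance P (Tac1) and neurotensin (Nts) from subsets of striatal, midbrain and hypothalamic neurons. Galanin (Gal), PACAP (Adcyap1) and the granin-related peptide precursor Vgf are known to be induced by neuronal activity, injury or growth factors.

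The labels call the cultures stem cells, but their marker levels differed widely. The mean of 18 neuron genes, such as Tubb3, Stmn2 and Syt1, was 11.73 ± 0.01 at 3% O2 and 11.81 ± 0.04 at 21% O2 in midbrain 48 h (log2, SD, n = 3 arrays). In cortex labelled 13 d it was 11.20 ± 0.04 at 3% O2 and 11.18 ± 0.04 at 21% O2. The other cultures lay far lower, at 8.40 ± 0.09 and 8.47 ± 0.06 in midbrain 13 d and at 8.95 ± 0.19 and 9.26 ± 0.14 in cortex labelled 48 h, again with 3% O2 first. The mean of 10 stem cell and radial glia genes ran the other way, at 10.03 ± 0.07 and 10.08 ± 0.18 in midbrain 48 h, against 11.03 ± 0.11 and 11.18 ± 0.01 in midbrain 13 d. In cortex labelled 48 h the stem cell mean was 10.97 ± 0.07 at 3% O2 and 11.18 ± 0.10 at 21% O2, higher than the 10.66 ± 0.04 and 10.73 ± 0.03 of cortex labelled 13 d. In the cortex, then, the arrays labelled with the shorter time carry less neuron RNA than those labelled with the longer time, opposite to midbrain, and cortex times are given as labelled throughout. By these markers cortex labelled 13 d is nearer to midbrain 48 h, and cortex labelled 48 h to midbrain 13 d, so the cortex times may be exchanged in the labels, which was not settled here. If they are, the cortex time comparisons below would run the other way, and those of the regions at 48 h would set different times side by side. In bulk RNA, more cells of a type and more RNA per cell cannot be told apart.

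**Figure D1:**
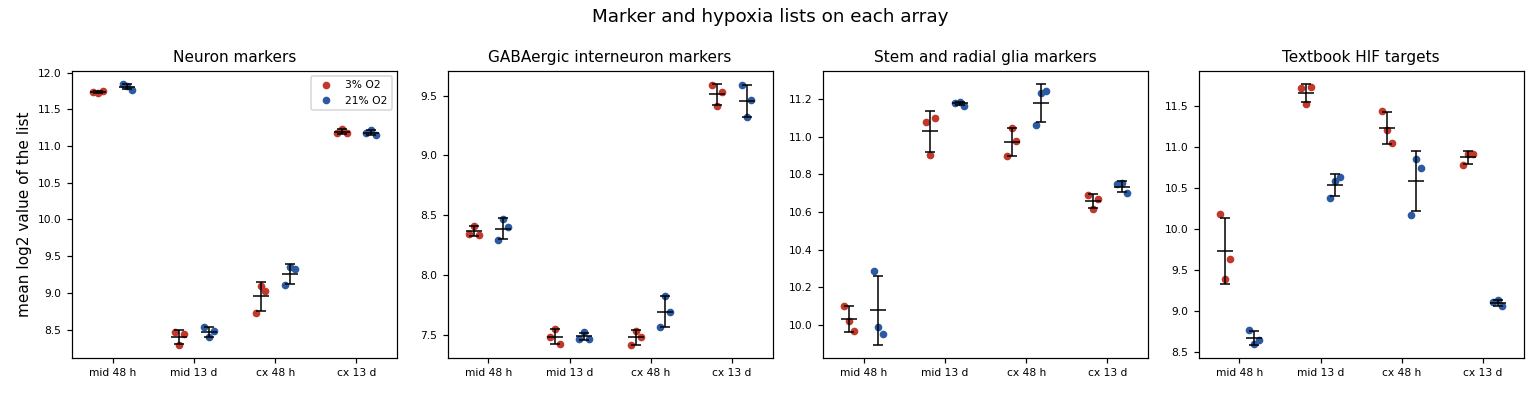
Mean log2 value of 4 gene lists on each of the 24 arrays, with 3% O2 in red left of 21% O2 in blue; bars are the mean and SD of 3 arrays. Neuron markers are high in cortex labelled 13 d and midbrain 48 h at either oxygen level, while the textbook HIF targets are higher at 3% O2 in each of the 4 kinds of culture.

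The stretches just before the start sites of 4 of the genes are shown because Gal, Npy and Adcyap1 had the oxygen differences described below and because the Sst promoter holds the textbook site of the cAMP-responsive factor CREB. Each line gives the 250 bases before the annotated start, read 5′ to 3′ on the strand of the gene, from RefSeq promoter windows of assembly GRCm38.p6. For Adcyap1, which has more than 1 annotated start, the upstream one is shown. Capitals mark ACGTG and GCGTG, the core of sites bound by the hypoxia-inducible factor HIF, and TGACG, which forms part of the CREB site, on either strand. Overlapping matches are joined.
Gal (GRCm38.p6, chr19:3414545-3414794, minus strand): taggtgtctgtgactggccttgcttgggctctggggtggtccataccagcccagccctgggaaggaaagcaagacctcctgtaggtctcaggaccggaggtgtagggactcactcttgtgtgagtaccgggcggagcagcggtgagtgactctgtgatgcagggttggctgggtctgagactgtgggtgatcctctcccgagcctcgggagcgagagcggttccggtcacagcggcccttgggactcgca
Npy (GRCm38.p6, chr6:49822460-49822709, plus strand): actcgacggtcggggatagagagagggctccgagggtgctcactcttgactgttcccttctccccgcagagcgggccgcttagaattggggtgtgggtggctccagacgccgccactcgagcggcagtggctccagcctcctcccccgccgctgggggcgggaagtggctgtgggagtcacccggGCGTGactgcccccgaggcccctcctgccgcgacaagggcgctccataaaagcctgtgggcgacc
Sst (GRCm38.p6, chr16:23890845-23891094, minus strand): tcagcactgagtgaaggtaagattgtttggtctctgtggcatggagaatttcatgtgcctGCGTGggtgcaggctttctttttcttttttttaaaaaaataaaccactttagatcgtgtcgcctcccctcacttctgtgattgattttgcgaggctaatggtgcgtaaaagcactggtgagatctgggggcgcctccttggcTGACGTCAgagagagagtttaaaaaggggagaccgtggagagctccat
Adcyap1 (GRCm38.p6, chr17:93198767-93199016, plus strand): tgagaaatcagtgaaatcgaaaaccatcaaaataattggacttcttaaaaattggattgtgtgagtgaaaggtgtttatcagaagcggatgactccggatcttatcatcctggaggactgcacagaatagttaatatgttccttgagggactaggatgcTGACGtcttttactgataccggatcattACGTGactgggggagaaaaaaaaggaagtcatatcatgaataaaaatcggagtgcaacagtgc
Of the 10 genes, 8 had a promoter window of 300 bases (250 before and 50 after the start), and Penk and Vgf are named only. TGACG was present in 7 of the 8, against 20.8% of all 32851 windows. In Sst 2 matches, on opposite strands, begin at positions -48 and -45, counted from the start, and overlap to give the full palindrome. In Gal the single match begins at position 20, where the start is 1, outside the stretch shown, and the Npy window holds none. ACGTG or GCGTG was present in 5 of the 8 windows, against 43.8% of all windows. Npy has a single GCGTG, which begins at position -65, and Gal has neither. A match is a description of the sequence, not evidence of binding, and no match says only that these letters are not in this window.

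Gal, the galanin precursor, had its largest oxygen difference in midbrain 48 h. In midbrain 48 h it read 7.52, 7.49 and 7.54 at 3% O2, against 6.82, 6.86 and 6.90 at 21% O2 (replicates 1, 2 and 3). The difference of 0.65 ± 0.06 (log2, SE, n = 3 arrays per group), or 1.57-fold, is many times the spread of either group, and these were the 2 highest of the 8 group means. In cortex labelled 13 d, the other neuron-rich culture, Gal read 6.64, 6.62 and 6.65 at 3% O2, against 6.51, 6.62 and 6.51 at 21% O2. These groups overlap and differ by 0.09 ± 0.06, so the choice of Gal for an oxygen difference in neuron-rich cultures rests on midbrain. The response in midbrain 48 h minus that in cortex labelled 13 d was 0.56 ± 0.08, given without a test. Outside midbrain 48 h, the 6 group means of Gal lay between 6.42 and 6.64, and neighbours in their order overlapped.

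Npy, the neuropeptide Y precursor, was higher at 3% O2 in both neuron-rich cultures, and by about the same amount. It read 10.20, 10.38 and 10.41 at 3% O2 in midbrain 48 h, against 9.93, 9.83 and 9.80 at 21% O2, a difference of 0.48 ± 0.11. In cortex labelled 13 d it read 10.52, 10.50 and 10.48 at 3% O2, against 10.10, 9.95 and 9.93 at 21% O2, a difference of 0.51 ± 0.11. In neither culture did the arrays overlap. The response in midbrain 48 h minus that in cortex labelled 13 d was -0.03 ± 0.15, also without a test. Beside these values, the median difference of the neuron list was -0.10 for midbrain 48 h and 0.03 for cortex labelled 13 d. By limma 0 of its 18 genes passed in either, where 1.19% and 0.607% of all probe sets did. The 12 measured GABAergic interneuron genes, such as Gad1 and Dlx1, had medians of -0.03 and 0.04 and also 0 past the threshold by limma, and the part of either list in the Npy values was not tested.

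**Figure D2:**
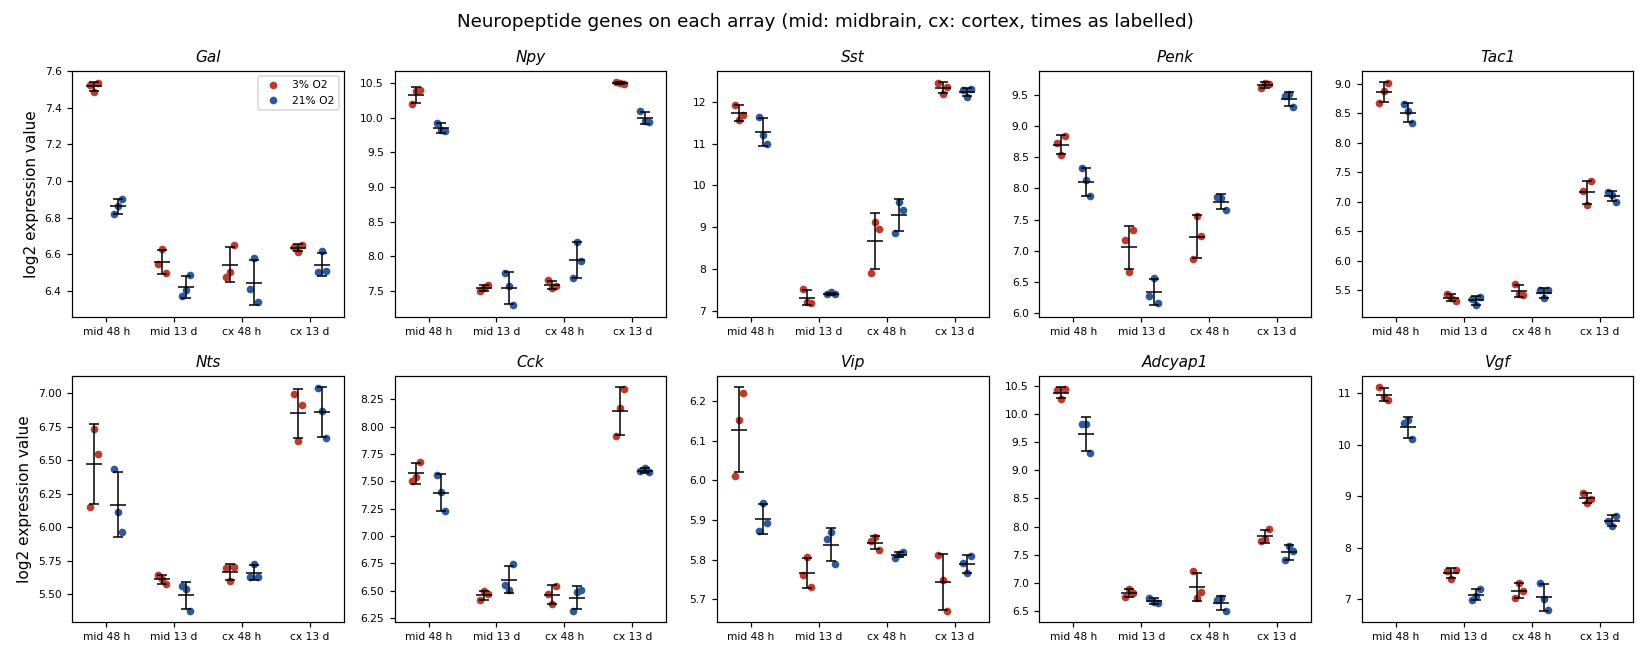
Log2 value of each of the 10 neuropeptide genes on all 24 arrays, with 3% O2 in red left of 21% O2 in blue for each culture; bars are the mean and SD of 3 arrays and each panel has its own scale. Most genes are high in midbrain 48 h and cortex labelled 13 d and low elsewhere. Gal is highest in midbrain 48 h at either oxygen level, and Vip, over a narrow range, in midbrain 48 h at 3% O2.

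In midbrain 48 h the fitted difference was above 0 for all 10 genes, with a median of 0.46 against -0.02 over all tested probe sets. The arrays at 3% O2 lay wholly above those at 21% O2 for 7 genes, namely Gal, Npy, Penk, Tac1, Vip, Adcyap1 and Vgf. This separation was present in 7.84% of all probe sets and, like the count, belongs to the contrast that chose the genes. Adcyap1, which encodes PACAP, a peptide that raises cAMP in neurons, had the largest difference of the 10. It read 10.44, 10.27 and 10.44 at 3% O2, against 9.83, 9.82 and 9.31 at 21% O2, a difference of 0.73 ± 0.12 (1.66-fold). Vgf, the precursor of several peptides released from neurons, read 11.12, 10.92 and 10.88 at 3% O2, against 10.43, 10.49 and 10.11 at 21% O2, a difference of 0.63 ± 0.12. For Penk, the enkephalin precursor, the values were 8.73, 8.54 and 8.84 at 3% O2, against 8.32, 8.13 and 7.87 at 21% O2, a difference of 0.59 ± 0.17. All 3 genes kept their arrays apart.

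The remaining genes differed less or less evenly in midbrain 48 h. Sst differed by 0.44 ± 0.24, with overlapping arrays, and Tac1 by 0.35 ± 0.10, where the lowest array at 3% O2 (8.68) barely cleared the highest at 21% O2 (8.66). Nts differed by 0.31 ± 0.13 and Cck, the cholecystokinin precursor, by 0.18 ± 0.10, both with overlap. Vip moved over a narrow range, 6.01 to 6.22 at 3% O2 and 5.87 to 5.94 at 21% O2, a difference of 0.23 ± 0.05. Same-numbered arrays of the 2 oxygen levels deviated together in midbrain, a pairing taken from the data. Within these pairs the 3% O2 array was the higher in all 3 pairs for 8 of the 10 genes. The exceptions were Nts and Cck in pair 1. This count belongs to a contrast that chose the genes, and the share of all probe sets with this pattern was not counted. Replicate 3 at 21% O2 was the lowest of its group for 8 of the 10 genes. Replicate 3 at 3% O2 was the highest of its group for 7 and the lowest for 1. The pericyte, fibroblast and meninges list was high in both number 3 arrays, at 8.24 for 3% O2 and 8.31 for 21% O2. It was at 7.00 to 7.16 on the other 4 arrays, and its part in these values was not tested. Without replicate 3 at 21% O2 the difference was 0.67 for Gal, 0.45 for Npy, 0.56 for Adcyap1, 0.52 for Vgf and 0.47 for Penk.

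In cortex labelled 13 d the same list was more divided. The median difference was 0.16 against -0.01 over all tested probe sets, with 8 genes above 0 and 2 below. The 3% O2 arrays lay wholly above the others for 5 genes, namely Npy, Cck, Vgf, Adcyap1 and Penk, a separation present in 6.94% of all probe sets. Cck had the largest difference. It read 7.91, 8.17 and 8.34 at 3% O2, against 7.59, 7.62 and 7.58 at 21% O2, a difference of 0.54 ± 0.10. Vgf read 9.07, 8.87 and 8.96 at 3% O2, against 8.53, 8.42 and 8.63 at 21% O2, a difference of 0.44 ± 0.12. Adcyap1 differed by 0.29 ± 0.12 and Penk by 0.23 ± 0.17. Sst, at 12.46, 12.20 and 12.37 against 12.29, 12.12 and 12.30, differed by 0.10 ± 0.24, and the differences of Tac1, Nts and Vip lay between -0.05 and 0.07.

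Set beside each other, both neuron-rich cultures had the 3% O2 arrays wholly above the others for Npy, Vgf, Adcyap1 and Penk. For Penk in cortex labelled 13 d the gap was narrow, from 9.51, the highest at 21% O2, to 9.61, the lowest at 3% O2. Both contrasts chose the genes, and the share of all probe sets separated in both was not counted. Of these 2 cultures, Gal, Tac1 and Vip separated in midbrain and Cck in cortex. As a description, the response in midbrain 48 h minus that in cortex labelled 13 d was 0.44 ± 0.18 for Adcyap1, 0.27 ± 0.07 for Vip and -0.37 ± 0.14 for Cck. It lay between 0.19 and 0.37 for Sst, Penk, Tac1, Nts and Vgf. The oxygen signal itself was also unequal: the mean of 15 textbook HIF targets was 9.74 ± 0.41 at 3% O2 against 8.68 ± 0.08 at 21% O2 in midbrain 48 h, and 10.88 ± 0.08 against 9.10 ± 0.04 in cortex labelled 13 d. In midbrain 48 h replicate 1 at 3% O2 had the highest HIF target mean, 10.18. The same array was the lowest of its group for 5 of the 10 neuropeptide genes and the highest for 2. Replicate 2 was close to it, the lowest for 4 and the highest for 1. The means over the 10 genes were 8.83 for replicate 1 and 8.85 for replicate 2. A relation between the HIF target and neuropeptide values was not tested.

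**Figure D3:**
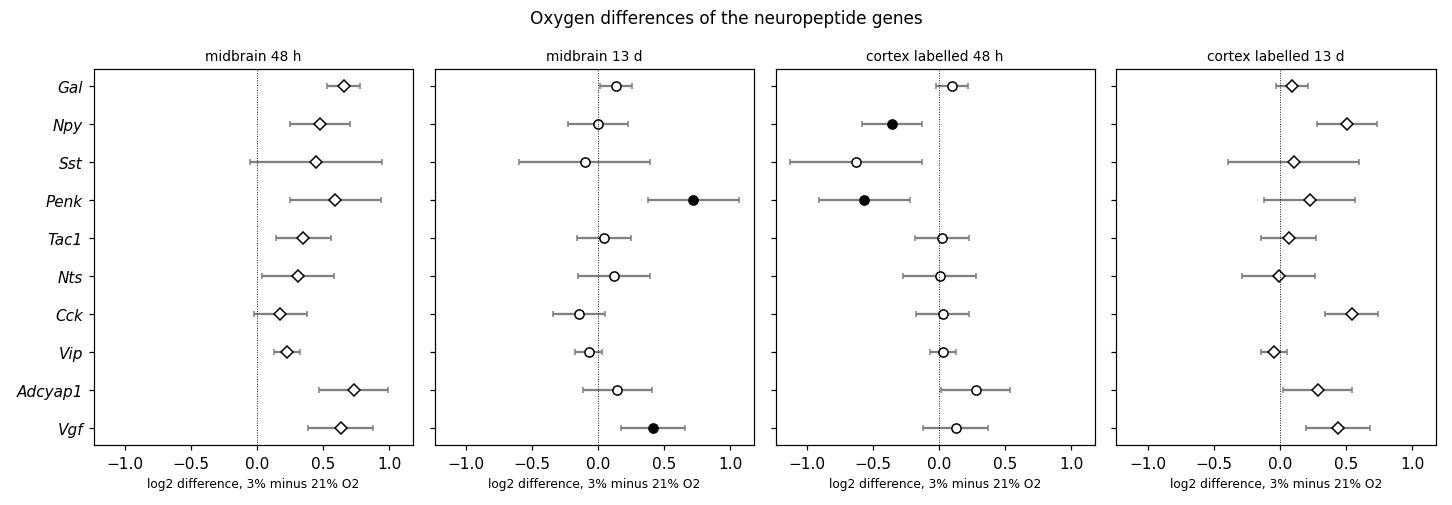
Log2 difference between 3% and 21% O2 of each neuropeptide gene in 4 kinds of culture, with 95% intervals from the fit to all 24 arrays; filled circles passed an adjusted p of 0.05, open circles did not, and diamonds are descriptions without a test. Gal, Vgf and Adcyap1 lead in midbrain 48 h and Cck and Npy in cortex labelled 13 d, whereas Penk differs in opposite directions in midbrain 13 d and cortex labelled 48 h.

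The rule that chose the genes names no oxygen response in the cultures with few neuron transcripts, and there oxygen was tested. The genes were still chosen with earlier results of these data known, so these tests are not fully independent of the choice. In midbrain 13 d 2 of the 10 genes rose, 0 fell and 8 did not pass, where 11.2% of all probe sets rose and 23.9% changed in either direction. Penk read 7.17, 6.67 and 7.33 at 3% O2, against 6.28, 6.57 and 6.17 at 21% O2, with no overlap. It rose by 0.72 ± 0.17 (adjusted p = 0.00271, limma, n = 3 arrays per group), or 1.65-fold. Vgf read 7.56, 7.40 and 7.57 at 3% O2, against 7.00, 7.08 and 7.21 at 21% O2, and rose by 0.42 ± 0.12 (limma adjusted p = 0.012), a call lost without replicate 1 at 21% O2 (0.37, limma adjusted p = 0.0599). Gal, at 6.55, 6.63 and 6.50 at 3% O2 against 6.37, 6.40 and 6.49 at 21% O2, did not overlap but did not pass, at 0.14 ± 0.06 (limma adjusted p = 0.108). Npy was at -0.00 ± 0.11 and its 95% interval ran from -0.23 to 0.22. Beside these values, the pericyte, fibroblast and meninges list had 4 of 9 genes higher at 3% O2 (list mean 7.79 ± 0.14 against 7.03 ± 0.03), and its part in them was not tested.

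In cortex labelled 48 h the direction was opposite for 2 genes, and the calls were fragile. There 0 rose, 2 fell and 8 did not pass, where 6.08% of all probe sets fell and 12.3% changed in either direction. Npy read 7.65, 7.53 and 7.57 at 3% O2, against 7.68, 8.21 and 7.93 at 21% O2, and fell by 0.36 (SE 0.11, limma adjusted p = 0.0357). Penk read 6.88, 7.57 and 7.23 at 3% O2, against 7.86, 7.85 and 7.66 at 21% O2, and fell by 0.56 (SE 0.17, limma adjusted p = 0.0299). Neither pair of groups overlapped. Sst, at 7.90, 9.13 and 8.96 against 8.85, 9.61 and 9.41, differed by -0.63 ± 0.24 and did not pass (limma adjusted p = 0.0967). Neither Npy nor Penk passed in a fit of these 6 arrays alone (limma adjusted p = 0.247 and 0.18), and the count of 2 was 0 without 3% O2 replicate 1, 3% O2 replicate 3 or 21% O2 replicate 2 and 1 without 21% O2 replicate 3. Without 3% O2 replicate 2 Npy was lost and Sst passed, and without 21% O2 replicate 1 Penk was lost and Sst passed. The neuron list moved the same way here, with 8 of 18 genes lower, such as Syt1 at -0.92 ± 0.09, and 1 higher, Nefl at 0.79 ± 0.12 (neurofilament light). Of the 12 GABAergic interneuron genes 3 were lower, namely Gad2 at -0.52 ± 0.11, Dlx1 at -0.54 ± 0.14 and Dlx2 at -0.41 ± 0.11. The part of these lists in the Npy and Penk values was not tested.

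Penk is the gene whose oxygen response was shown to differ between the cultures with few neuron transcripts. The response in midbrain 13 d minus that in cortex labelled 48 h was 1.29 ± 0.23 (limma adjusted p = 0.00237), where 6.58% of all probe sets differed. The other 9 genes did not pass this test. For Npy the difference of responses was 0.35 ± 0.15 (limma adjusted p = 0.198). The midbrain 13 d arrays belong to the other array run, so a run effect cancels here only if it adds equally to both oxygen levels.

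The level of most of the genes followed the kind of culture far more than oxygen. Each level test here and below uses arrays of midbrain 48 h or cortex labelled 13 d. The same arrays gave the oxygen contrasts that chose the genes through Gal and Npy, so these tests are not independent of that choice. At 21% O2, in cortex labelled 13 d against cortex labelled 48 h, 8 of the 10 genes were higher and 0 lower, where 16.8% of all probe sets were higher and 37.2% changed in either direction. Sst was at 12.29, 12.12 and 12.30 in cortex labelled 13 d, against 8.85, 9.61 and 9.41 in cortex labelled 48 h, a rise of 2.95 ± 0.24 or 7.71-fold (limma adjusted p = 4.74e-09). Npy rose by 2.06 ± 0.11 (4.17-fold), Penk by 1.64 ± 0.17, Tac1 by 1.64 ± 0.10, Vgf by 1.48 ± 0.12, Nts by 1.20 ± 0.13, Cck by 1.16 ± 0.10 and Adcyap1 by 0.89 ± 0.12. Gal and Vip did not pass, at 0.10 ± 0.06 and -0.02 ± 0.05. At 3% O2 the same 8 genes rose between these cultures, against 17.5% of all probe sets higher and 42.2% changed in either direction, with Sst at 3.68 ± 0.24 and Npy at 2.92 ± 0.11. The neuron list had a mean of 11.18 in cortex labelled 13 d and 9.26 in cortex labelled 48 h at 21% O2, and the GABAergic interneuron list 9.46 and 7.69.

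Midbrain against cortex at the labelled time of 48 h gave a similar count, with 8 genes higher in midbrain and 0 lower at 21% O2, where 24.3% of all probe sets were higher and 54.8% changed in either direction. Vgf read 10.43, 10.49 and 10.11 in midbrain, against 7.32, 7.01 and 6.80 in cortex, a difference of 3.30 ± 0.12 or 9.83-fold (limma adjusted p = 7.8e-15). Tac1 was higher by 3.05 ± 0.10, Adcyap1 by 3.01 ± 0.12, Sst by 1.99 ± 0.24, Npy by 1.92 ± 0.11, Cck by 0.96 ± 0.10, Nts by 0.51 ± 0.13 and Gal by 0.42 ± 0.06. Penk (0.32 ± 0.17) and Vip (0.09 ± 0.05) did not pass. At 3% O2 all 10 were higher in midbrain, against 24.3% of all probe sets higher and 61.2% changed in either direction, Gal by 0.97 ± 0.06 and Penk by 1.48 ± 0.17. These comparisons reuse the cortex 48 h arrays of the preceding one, and here too the neuron list was apart, at 11.81 in midbrain and 9.26 in cortex at 21% O2.

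The comparison of midbrain 48 h with cortex labelled 13 d sets neuron-rich cultures of the same array run side by side, and it split the genes. Region and labelled time differ together here and cannot be told apart. At 21% O2 4 genes were higher in midbrain and 3 lower, where 19.5% of all probe sets were higher, 21.9% lower and 41.4% either. The neuron level was not equal in this comparison. By limma 14 of the 18 neuron genes were higher in midbrain and 0 lower, with list means of 11.81 in midbrain and 11.18 in cortex. The part of this list in the neuropeptide values was not tested. Adcyap1 read 9.83, 9.82 and 9.31 in midbrain, against 7.40, 7.65 and 7.56 in cortex, a difference of 2.11 ± 0.12 or 4.33-fold (limma adjusted p = 1.2e-10). Vgf was higher in midbrain by 1.82 ± 0.12, Tac1 by 1.41 ± 0.10 and Gal by 0.32 ± 0.06. 

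Penk was the clearest of the genes lower in midbrain. It read 8.32, 8.13 and 7.87 in midbrain, against 9.48, 9.51 and 9.31 in cortex, a difference of -1.32 ± 0.17 (limma adjusted p = 2.08e-06). Sst was at -0.96 ± 0.24 and Nts at -0.69 ± 0.13, while Npy (-0.14 ± 0.11), Cck (-0.20 ± 0.10) and Vip (0.11 ± 0.05) did not pass. The 95% interval for Npy, -0.37 to 0.08, bounds the gap in either direction. At 3% O2 5 genes were higher in midbrain and 4 lower, where 19.7% of all probe sets were higher, 23.1% lower and 42.8% either. Gal (0.88 ± 0.06) and Vip (0.38 ± 0.05) were higher in midbrain there and Cck (-0.57 ± 0.10) lower, and Npy again did not pass. The calls of Sst (-0.62, limma adjusted p = 0.0428) and Nts (-0.37, limma adjusted p = 0.0253) at 3% O2 were lost when single arrays were left out, Sst without 3% O2 replicate 2 or 3 of midbrain 48 h or any of the 3 cortex arrays, and Nts without replicate 1 of midbrain 48 h or replicate 1 or 3 of cortex. The marker lists differed between these cultures as well. At 21% O2 the GABAergic interneuron list was at 8.39 ± 0.09 in midbrain and 9.46 ± 0.13 in cortex, but its genes were divided. By limma 4 of its 12 genes were higher in midbrain and 7 lower. Gad1 averaged 10.97 in midbrain and 10.29 in cortex, and Gad2 11.19 and 10.14. Dlx1 averaged 6.93 in midbrain and 10.68 in cortex, and Dlx5 6.60 and 9.91. The glutamatergic and cortical projection neuron list was at 7.96 ± 0.04 and 9.59 ± 0.13. The dopaminergic neuron list was at 7.81 ± 0.17 in midbrain and 7.26 ± 0.06 in cortex.

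**Figure D4:**
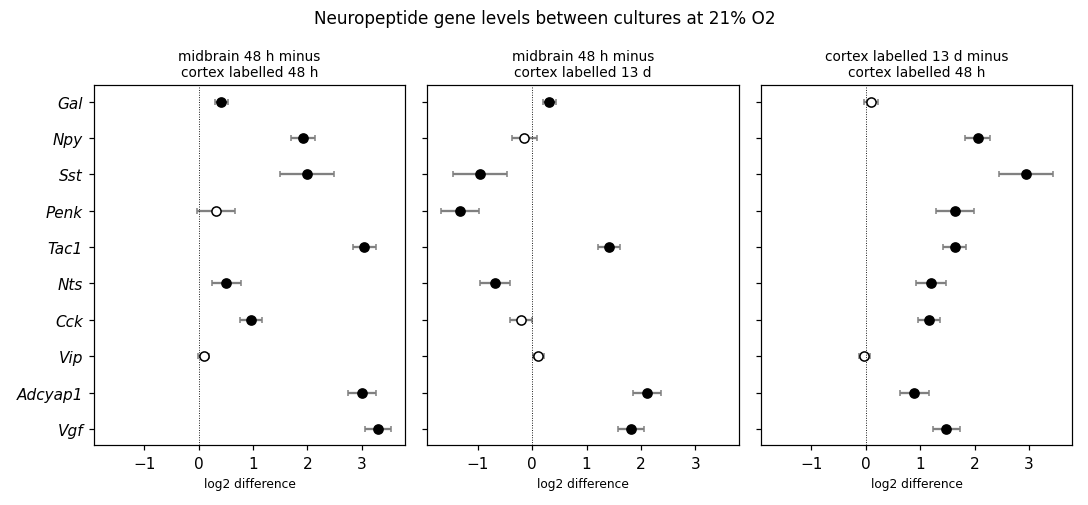
Log2 differences of the neuropeptide genes between kinds of culture at 21% O2, with 95% intervals; filled circles passed an adjusted p of 0.05 and open circles did not. Between midbrain 48 h and cortex labelled 13 d, Adcyap1, Vgf, Tac1 and Gal are higher in midbrain and Penk, Sst and Nts higher in cortex.

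Midbrain 13 d was not tested against other cultures, because its array run and its group identity cannot be told apart. Its levels were low for most genes: Sst averaged 7.31 ± 0.18 at 3% O2 and 7.41 ± 0.02 at 21% O2, Npy 7.54 ± 0.04 and 7.54 ± 0.24, and Tac1 5.38 ± 0.06 and 5.33 ± 0.08. Over the 8 groups the means of Sst spanned 5.03 log2 units, those of Vgf 3.93, Adcyap1 3.74, Tac1 3.53, Penk 3.32, Npy 2.97, Cck 1.71, Nts 1.37, Gal 1.09 and Vip 0.38. The highest mean was in cortex labelled 13 d for Npy, Sst, Penk, Nts and Cck, and in midbrain 48 h at 3% O2 for Gal, Tac1, Vip, Adcyap1 and Vgf. For Npy the 5 highest groups were each free of overlap with the next: cortex labelled 13 d at 3% O2, midbrain 48 h at 3%, cortex labelled 13 d at 21%, midbrain 48 h at 21% and cortex labelled 48 h at 21% O2. The remaining 3 groups of Npy overlapped.

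Across the 8 group means, which share regions, times and array runs, the genes varied together to different degrees, as a description. Npy correlated with Cck at r = 0.966, with Sst at r = 0.964, and also with Tac1 at r = 0.891 and with Vgf at r = 0.848. Penk correlated with Nts at r = 0.964. Adcyap1 correlated with Vgf at r = 0.982, Tac1 with Vgf at r = 0.988, and Gal with Adcyap1 at r = 0.918 and with Vip at r = 0.906. Gal and Npy, the genes the set was chosen for, correlated at only r = 0.602. With the neuron list mean Npy correlated at r = 0.965 and Gal at r = 0.656 (n = 8 group means each).

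Among 5065 other genes (5066 for Vip) whose group means spanned at least 1 log2 unit, the ones most like Gal were the sodium channel gene Scn9a (r = 0.988, n = 8 group means), a probe set annotated to Mir325 (0.964) and the GABA receptor subunit gene Gabre (0.959). Those most like Npy were Cpne4 and the cannabinoid receptor gene Cnr1 (both 0.994) and Sphkap (0.992). Clec2l was nearest to Sst (0.997), Ndnf to Penk (0.981), Cdh7 to Tac1 (0.999), Slc10a4 to Nts (0.995), Trpv2 to Vgf (0.998) and a probe set annotated to Mir181a-1 to Adcyap1 (0.998). The gene nearest to Cck was Grp (0.990), itself a neuropeptide precursor, and Gabre was nearest to Vip (0.952). High values are usual over so few points.

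Genes that process and store peptides were tested in all 4 oxygen comparisons. Of 25 listed, 24 were measured (Pcsk2 was not named on the array table used here), and 0 passed limma's threshold in midbrain 48 h or in cortex labelled 13 d, where 1.19% and 0.607% of all probe sets changed. The medians there were 0.17 and 0.05, against -0.02 and -0.01 over all probe sets. Pam, which amidates peptides, had the smallest p in midbrain 48 h, at 10.24 on average at 3% O2 against 9.89 at 21% O2 (0.35 ± 0.09, limma adjusted p = 0.072). In midbrain 13 d 8 rose and 5 fell, where 11.2% and 12.7% of all probe sets did. Scg5 (1.02 ± 0.18), the chaperone of a proprotein convertase, and Scg2 (0.94 ± 0.20), a secretogranin and peptide precursor, rose, as did Pam (0.50 ± 0.09) and Syt7 (0.58 ± 0.06), a calcium sensor of granule release. Scg3, a granule sorting protein, fell by 1.16 (SE 0.18), Chga, a granin, by 0.78 (SE 0.13) and Pcsk1, a proprotein convertase, by 0.51 (SE 0.17). The call of Pcsk1 was lost without any 1 of the 6 arrays, and those of Cpd, Ptprn, Cadps and Rab27b without some of them.

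In cortex labelled 48 h 3 processing genes rose and 3 fell, where 6.25% and 6.08% of all probe sets did. Cadps, which primes granules for release, fell by 1.15 (SE 0.14), Chga by 0.64 (SE 0.13) and Syt4 by 0.46 (SE 0.12), while Qpct, which forms the blocked amino end of some peptides, rose by 0.53 ± 0.12, Rab3a by 0.38 ± 0.09 and Syt7 by 0.27 ± 0.06. This count of 6 was 10 without 21% O2 replicate 1 and 0 in a fit of the 6 arrays alone. Syt4 was lost without 3% O2 replicate 1 or 21% O2 replicate 2 or 3, and Syt7 without 21% O2 replicate 2. Between midbrain 48 h and cortex labelled 13 d at 21% O2, 18 of the 24 processing genes were higher in midbrain and 0 lower. Of all probe sets 19.5% were higher and 21.9% lower. The median of the processing genes was 0.81, against 0.01 over all probe sets. Of the 18 neuron genes 14 were higher in midbrain and 0 lower there, with a median of 0.56, and their part in these values was not tested.

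Among the 27 receptor genes, the galanin receptor gene Galr1 changed with oxygen in cortex labelled 13 d, the neuron-rich culture in which Gal itself did not separate. It read 6.94, 7.30 and 7.40 at 3% O2, against 6.41, 6.53 and 6.55 at 21% O2, with no overlap. It rose by 0.72 ± 0.08, or by more than any other receptor in that comparison (limma adjusted p = 4.31e-05), and was the only 1 of 27 past the threshold, where 0.543% of all probe sets rose. In midbrain 48 h Galr1 read 5.76, 5.79 and 5.62 at 3% O2, against 5.62, 5.69 and 5.62 at 21% O2, and did not pass (0.08 ± 0.08). The difference between the responses in cortex labelled 13 d and labelled 48 h was 0.62 ± 0.12 (limma adjusted p = 0.00634), and that between midbrain 48 h and cortex labelled 13 d was -0.64 ± 0.12 (limma adjusted p = 0.0691), both tested after the values had been seen. The other galanin receptor genes, Galr2 and Galr3, did not pass in any of the 4 oxygen comparisons.

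In midbrain 48 h 0 of the 27 receptor genes passed limma's threshold. Cckbr, a cholecystokinin receptor gene, was nearest, at 6.70, 6.88 and 6.51 at 3% O2 against 6.53, 6.41 and 6.19 at 21% O2 (0.32 ± 0.08, limma adjusted p = 0.0737). It passed when the same-numbered arrays were paired as a replicate block (limma adjusted p = 0.0289) and without 3% O2 replicate 3 or 21% O2 replicate 1. In midbrain 13 d 3 of the 27 receptor genes fell and 0 rose, where 12.7% of all probe sets fell and 11.2% rose, so the count is near the background share. Adcyap1r1, the PACAP receptor, fell by 0.60 (SE 0.08), Ntsr2, a neurotensin receptor known from astrocytes, by 0.73 (SE 0.15) and Vipr2 by 0.23 (SE 0.08), which no longer passed when 3% O2 replicate 2 or 3, or 21% O2 replicate 1 or 3, was left out. In cortex labelled 48 h 2 of the 27 fell and 1 rose, again near the background shares of 6.08% and 6.25%. There Adcyap1r1 fell by 0.50 (SE 0.08, limma adjusted p = 0.000402) and Ntsr1 by 0.51 (SE 0.16), while Sstr4, a somatostatin receptor, rose by 0.65 ± 0.12. Ntsr1 no longer passed when 3% O2 replicate 1 or 3, or 21% O2 replicate 2 or 3, was left out, and in a fit of the 6 arrays alone 0 of the 3 passed (limma adjusted p of 0.113 for Adcyap1r1). Adcyap1r1 therefore fell in both cultures with few neuron transcripts, and in neither did Adcyap1 pass (0.15 ± 0.12 and 0.28 ± 0.12). The astrocyte list averaged 9.38 ± 0.21 at 3% O2 and 9.60 ± 0.10 at 21% O2 in midbrain 13 d, and 8.73 ± 0.07 and 9.09 ± 0.71 in cortex labelled 48 h, and its part in these values was not tested.

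**Figure D5:**
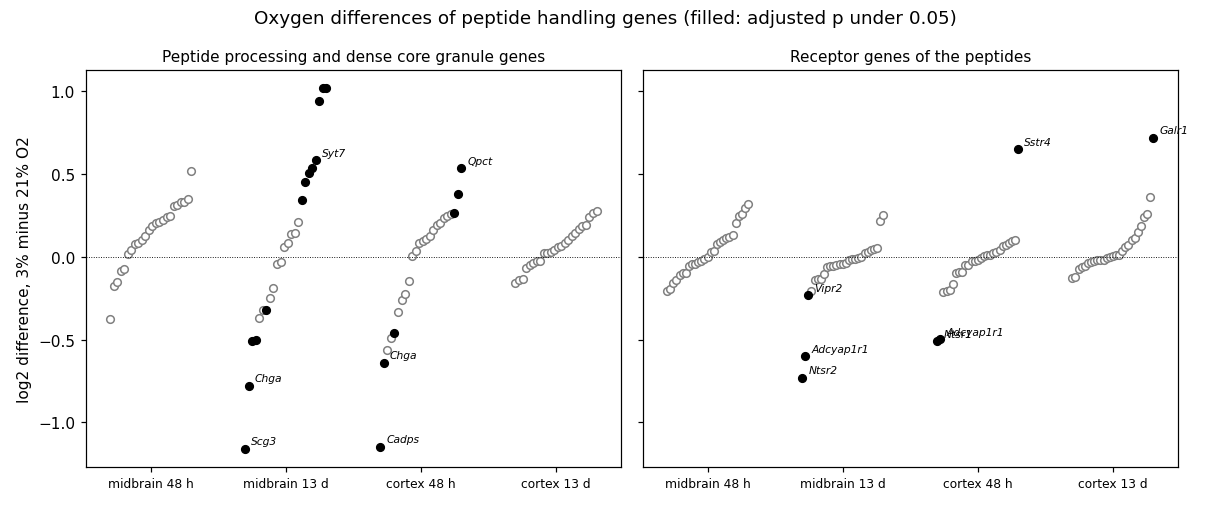
Log2 difference between 3% and 21% O2 of 24 peptide processing and granule genes (left) and 27 receptor genes (right), ordered by size within each culture, with cortex times as labelled; filled points passed an adjusted p of 0.05 and up to 3 of them with the smallest p are named. Filled points are absent in midbrain 48 h, and Galr1 is the single filled receptor in cortex labelled 13 d.

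Other peptide precursors put the 10 genes in context. Of 46 listed, 43 were measured, and 2 rose and 0 fell in midbrain 48 h, where 0.701% of all probe sets rose. Crh, which encodes corticotropin-releasing hormone, read 6.15, 6.12 and 6.23 at 3% O2, against 5.93, 5.96 and 5.91 at 21% O2, and rose by 0.23 ± 0.04 (limma adjusted p = 0.00271). Pnoc, the nociceptin precursor, read 9.40, 9.57 and 9.57 against 9.27, 9.24 and 9.00, and rose by 0.35 ± 0.08 (limma adjusted p = 0.0269), a call lost in the replicate block (0.35, limma adjusted p = 0.0872) and on leaving out 3% O2 replicate 2, 3% O2 replicate 3 or 21% O2 replicate 3. Neither passed in a fit of the 6 arrays alone (limma adjusted p = 0.22 and 0.237). The median over the 43 genes was -0.02, the same as over all probe sets. In cortex labelled 13 d 0 of 43 passed limma's threshold, and Grp, the gastrin-releasing peptide precursor, was nearest at 0.64 ± 0.17 (limma adjusted p = 0.132). It passed without 21% O2 replicate 2 (0.83).

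In midbrain 13 d 2 of these 43 precursors rose and 0 fell, where 11.2% of all probe sets rose and 12.7% fell. In cortex labelled 48 h 1 rose and 0 fell, where 6.25% and 6.08% of all probe sets did. Apln, which encodes the vasoactive peptide apelin, rose in both cultures with few neuron transcripts. It read 10.64, 10.51 and 10.67 at 3% O2 in midbrain 13 d, against 8.05, 8.65 and 8.52 at 21% O2, a rise of 2.20 ± 0.28 (limma adjusted p = 8.12e-06). In cortex labelled 48 h it read 11.58, 10.58 and 10.91 at 3% O2, against 10.55, 8.99 and 9.73 at 21% O2, a rise of 1.27 ± 0.28 (limma adjusted p = 0.00486), with the groups barely apart. That call was lost in a fit of the 6 arrays alone (limma adjusted p = 0.216). Gnrh1 rose in midbrain 13 d by 0.26 ± 0.08, a call lost in the replicate block (limma adjusted p = 0.06) and without 5 of the 6 arrays in turn.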

How the data were processed

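RNA of the 24 cultures was hybridised to 1-colour mouse gene arrays, 1 array per sample. The deposited table holds log2 expression values for 28856 probe sets, normalized by the authors before deposit by a method that the labels leave unnamed. Of these, 23410 carried a gene symbol and were tested, 21789 of them with a single symbol. The 1621 with several symbols named no gene, and the 5446 without one were left out. The files hold no detection calls, and depth does not apply to arrays, where the number of arrays limits the precision.

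Samples were grouped by region, time and oxygen from their labels. A model of 8 group means was fitted to all 24 arrays with limma 3.58.1 in R 4.3.3 (lmFit and eBayes, 16 residual degrees of freedom), with Benjamini-Hochberg adjustment over the 23410 probe sets and a threshold of 0.05, and ± after a difference is its SE. The script was tested on simulated data. Promoter motifs were searched with Python 3.11.15.

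The members and gene lists were chosen with earlier results of these data known. Planned for naming were all 10 members, the 3 genes of smallest p of each list in each oxygen comparison, and genes behind counts of 5 or fewer. The 3 genes most correlated with each member were planned too. Of the list genes and correlated genes the text names only a part. Scg5, Scg2, Pam, Cpd and Ptprn in midbrain 13 d and the Galr1 response differences were picked after their values were seen.

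In midbrain, arrays that carry the same replicate number deviated together across oxygen levels (correlations of deviations 0.121, 0.217 and 0.243 at 48 h and 0.123, 0.421 and 0.306 at 13 d), all over 0.1, so a replicate block was taken as a pairing there. At 13 d, 3% O2 replicate 1 with 21% O2 replicate 3 (0.164) and 3% O2 replicate 3 with 21% O2 replicate 1 (0.167) correlated more than the replicate 1 pair. This pairing comes from the data, not from the labels. Alternatives were quantile normalization, median centring, brighter probe sets only, all probe sets, trend and robust moderation, the compared arrays alone, the replicate block, and fits with each array omitted in turn.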

Additional observations from a re-analysis of the deposited data

Results flagged for a closer look

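Oxygen differences ran in opposite directions in pairs of cultures for 3 of the neuropeptide genes, with every array at 3% O2 on one side in one culture and on the other side in the other. For Npy the difference in cortex labelled 13 d exceeded that in cortex labelled 48 h by 0.86, and the difference in midbrain 48 h exceeded that in cortex labelled 48 h by 0.83. For Penk the gap was 0.79 between cortex labelled 13 d and cortex labelled 48 h, and 1.16 between midbrain 48 h and cortex labelled 48 h. For Cck the difference in midbrain 13 d minus that in cortex labelled 13 d was -0.69. These 5 gaps were not tested, because each includes a contrast that chose the genes. In midbrain 13 d the Cck arrays barely separated, with 6.49 the highest at 3% O2 and 6.51 the lowest at 21% O2, and Cck did not pass. The share of all probe sets with such opposite separations was not counted.

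Penk also differed by a test of the difference itself. Its response in midbrain 13 d minus that in cortex labelled 48 h was 1.29 ± 0.23 (limma adjusted p = 0.00237), and Penk was higher at 3% O2 in all 3 same-numbered pairs of midbrain 13 d, by 0.90, 0.10 and 1.17.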

How the results depend on the processing

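Among the tested results none reversed under any alternative that was run. The exception was 23 sign changes of neuropeptide genes that passed the threshold in neither setting. For these genes sign changes were not counted in the oxygen contrasts of midbrain 48 h and cortex labelled 13 d. In cortex labelled 13 d the small difference of Nts changed sign without 21% O2 replicate 1, and that of Tac1 without 3% O2 replicate 3. With quantile normalization 1 processing gene (Pam) and 1 receptor gene (Cckbr) passed in midbrain 48 h, against 0 each, and Gal there moved to 0.69. With brighter probe sets only, which keeps 5 of the 10 neuropeptide genes, the median difference was 0.59 for midbrain 48 h and 0.29 for cortex labelled 13 d. The counts of neuropeptide genes that passed were then 4 and 5 for region at 48 h (21% and 3% O2), 4 and 4 for midbrain 48 h against cortex labelled 13 d, and 5 and 5 for cortex labelled 13 d against 48 h. Receptor genes that passed numbered 1 in midbrain 13 d, 1 in cortex labelled 48 h and 0 in cortex labelled 13 d by limma, since fewer genes were tested.

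In a fit of the compared arrays alone, 0 neuropeptide, 0 processing and 0 receptor genes passed in cortex labelled 48 h by limma, and 1 processing and 2 receptor genes in cortex labelled 13 d. With the replicate block 1 receptor gene passed in midbrain 48 h, 1 neuropeptide gene (Sst, limma adjusted p = 0.00163) and 5 receptor genes in cortex labelled 48 h, and 2 neuropeptide genes (Penk and Sst) in the difference of responses. The block changed no call of a neuropeptide gene in midbrain 13 d. In cortex same-numbered arrays did not deviate together throughout (0.285, 0.417 and -0.044 at 48 h, -0.014, 0.229 and -0.367 at 13 d), so there they share only a number.

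Leaving out single arrays gave 1 to 2 neuropeptide genes in midbrain 13 d, 0 to 2 in cortex labelled 48 h and 1 to 2 in the difference of responses. It gave 4 to 10 processing genes and 2 to 5 receptor genes in cortex labelled 48 h, and 0 to 1 receptor genes in midbrain 48 h. The causes of these changes were not tested.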
